A study of Mus musculus with 2 samples.

Results

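Genes of glucose sensing and insulin release were followed across the hormone-producing cells of pancreatic islets. The set holds 9 genes: Slc2a2, Abcc8, Kcnj11, Cacna1d, Trpm5, Snap25, Stx1a, Vamp2 and Syt7. They were chosen by function, and all 9 were among the 31053 gene rows of both count tables. Islets came from wild-type NOD/ShiLtJ mice, which develop autoimmune diabetes spontaneously, at 15 weeks of age. One library was made from mice fed 16% HC with 4% gluten and one from mice fed 20% HC (the labels do not expand HC), each from dissociated cells of 3 mice pooled before capture (10x Genomics single cell 3' v3). With 1 library per diet the diets could be described but not tested. Values are given for the library with gluten first and the library with HC alone second.

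A beta cell releases insulin when glucose enters through a transporter, in mice mainly GLUT2 (Slc2a2), and is metabolised. The rise in ATP closes the KATP channel, built of the sulfonylurea receptor SUR1 (Abcc8) and the pore Kir6.2 (Kcnj11), the membrane depolarises, and calcium enters through voltage-gated channels such as Cav1.3 (Cacna1d). Trpm5 is a calcium-activated cation channel that adds depolarising current. Calcium acts on sensors such as synaptotagmin 7 (Syt7), and the SNARE proteins Snap25, syntaxin 1A (Stx1a) and Vamp2 fuse the granule with the plasma membrane. Alpha, delta and PP cells, which release glucagon, somatostatin and pancreatic polypeptide, are also electrically excitable and release granules with related machinery.

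Cells were assigned to a type by the hormone that made up at least 5% of their UMIs (molecules counted by unique molecular identifiers). Beta-gated cells numbered 1053 and 1219, alpha-gated 899 and 455, delta-gated 377 and 154, and PP-gated 37 and 35, in all 4229 of the 14233 cells kept. Check genes outside the hormones followed the beta gate: the summed level of the beta list was 4673.9 and 5094.6 CPM in beta-gated cells and between 139.1 and 269 CPM in the other types. They did not follow the PP gate: the PP check genes summed to 771.4 and 778.7 CPM in PP-gated cells and to 1245.1 and 1562.8 CPM in alpha-gated cells, and the alpha check genes to 3253.0 and 5301.2 CPM in PP-gated cells, so that PP-gated cells rest on their hormone alone. Levels are given as CPM, UMIs per 1000000 UMIs outside 7 hormone genes, because those genes took 66.14% and 67.2% of all UMIs in beta-gated cells, 37.18% and 41.54% in alpha-gated, 27.32% and 26.67% in delta-gated and 54.45% and 53.15% in PP-gated cells. Median depth was 27371 and 36440 UMIs in beta-gated cells, and from 7789 to 17532 in the other endocrine types. The libraries shared 15 barcodes, of which 3 were gated as endocrine in both. T cells from the infiltrate, 965 and 1782, served as the background for free RNA, which was not equal to that of the endocrine gates. The T gate set no limit on mesenchymal or endothelial markers. Mesenchymal markers summed to 476.6 and 322.2 CPM in T-gated and 8.145 and 5.967 CPM in alpha-gated cells, and endothelial markers to 130.4 and 114.5 against 2.932 and 2.854 CPM. Insulin made up 1.169% and 0.7345% of T-gated UMIs, against 0.4609% and 0.3377% in alpha-gated cells. Exocrine RNA differed between groups: summed acinar markers were 343.4 and 60.79 CPM in beta-gated cells, 728.4 and 631.4 CPM in alpha-gated cells, 818.3 and 12202.1 CPM in delta-gated cells and 303.5 and 27296.7 CPM in PP-gated cells.

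The 9 genes lie on 7 chromosomes of the mm10 build (GENCODE vM21), and each is protein coding. Slc2a2 lies on chromosome 3 (28697903 to 28731359, plus strand), Snap25 on chromosome 2 (136713453 to 136782428, plus), Stx1a on chromosome 5 (135023482 to 135051100, plus) and Vamp2 on chromosome 11 (69088490 to 69092384, plus). Cacna1d lies on chromosome 14 (30039939 to 30491455, minus) and Syt7 on chromosome 19 (10389090 to 10453180, plus). Chromosome 7 holds Abcc8 (46104523 to 46180033, minus), Kcnj11 (46093953 to 46100764, minus) and Trpm5 (143069153 to 143094642, minus). Abcc8 and Kcnj11, the subunits of the KATP channel, are neighbours on the same strand with 3758 bases between them. Genes on the opposite strand overlap Slc2a2, Abcc8, Cacna1d, Trpm5 and Syt7, and whether counting used strand is not given in the sources used here.

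Promoter sequence is shown for Slc2a2 and Trpm5, whose levels set beta-gated cells apart, and for Stx1a, which was lowest in them. RefSeq windows (GRCm38.p6) were found for 4 of the 9 genes, and the 250 bases before the start are printed 5′ to 3′ on the gene's own strand, with capitals marking TAAT on either strand, the core bound by homeodomain factors. Each of the 3 windows held 1 TAAT match, as did 54.92% of all 32851 windows of this length. CANNTG, the E-box, occurred in Slc2a2 and Stx1a and not in Trpm5, against 66.22% of all windows, and TGCTGA on either strand in none of the 3, against 16.08%. Slc2a2 held 2 CpG and Trpm5 4, against a median of 6 over all windows, and Stx1a held 9. A match describes letters only.
Slc2a2, chr3:28697653-28697902, plus: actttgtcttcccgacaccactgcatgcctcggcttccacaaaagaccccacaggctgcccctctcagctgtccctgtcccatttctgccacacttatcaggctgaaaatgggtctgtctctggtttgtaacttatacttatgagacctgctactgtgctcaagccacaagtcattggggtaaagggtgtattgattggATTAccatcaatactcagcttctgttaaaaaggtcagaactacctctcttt
Trpm5, chr7:143094643-143094892, minus: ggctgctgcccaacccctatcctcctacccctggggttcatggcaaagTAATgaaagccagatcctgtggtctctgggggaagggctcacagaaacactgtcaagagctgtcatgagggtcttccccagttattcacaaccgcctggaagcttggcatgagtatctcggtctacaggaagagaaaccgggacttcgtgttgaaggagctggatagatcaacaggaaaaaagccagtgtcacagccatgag
Stx1a, chr5:135023232-135023481, plus: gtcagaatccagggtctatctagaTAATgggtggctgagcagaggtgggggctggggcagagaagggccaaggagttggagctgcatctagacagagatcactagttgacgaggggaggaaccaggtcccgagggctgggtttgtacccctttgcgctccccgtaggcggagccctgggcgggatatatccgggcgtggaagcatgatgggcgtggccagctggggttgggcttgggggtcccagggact

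Slc2a2, the glucose transporter, was high in beta-gated cells and under 10 CPM elsewhere. Its level was 714.7 and 752.2 CPM in beta-gated cells (7718 and 11605 UMIs), 4.236 and 1.297 CPM in alpha-gated cells, 9.195 and 2.312 CPM in delta-gated cells, and 1 and 0 UMIs in PP-gated cells. Both beta-gated libraries lay far above all others, and the alpha-, delta- and PP-gated values lay below or near the T-gated level of 6.7 and 5.927 CPM, the highest being the delta-gated value with gluten. The log2 ratio of beta over alpha was 7.93 (SE 0.32, adjusted p = 2.31e-11, edgeR quasi-likelihood test over 11980 genes), and over delta 6.97 (SE 0.33, adjusted p = 1.72e-10). Within the libraries the ratio to alpha was 169-fold [115, 259] with gluten and 580-fold [248, 1786] with HC alone, where brackets hold 95% intervals for counting error. Per 1000000 insulin UMIs, used here as a rough measure of how much beta cell RNA a droplet holds, Slc2a2 stood at 391.9 and 396.5 in beta-gated cells, 577.3 [377.2, 845.8] and 224.6 [72.93, 524] in alpha-gated cells, and 565.1 [354.2, 855.4] and 799.7 [576.4, 1080.9] in T-gated cells. In delta-gated cells it was 1101.3 [681.8, 1682.9] and 359.5 [74.15, 1050.4]. The intervals of delta-gated cells with gluten and of T-gated cells with HC alone lay above the beta-gated value of the same library. T cells should lack Slc2a2, and the T-gated intervals overlapped those of the alpha- and delta-gated cells of the same library except for alpha-gated cells with HC alone, which were lower. The part of free RNA in these counts was not tested.

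Around this transporter, 7 of 19 tested genes of glucose entry and metabolism were higher in beta-gated than in alpha-gated cells and 4 were lower (median log2 ratio 0.09, against -0.02 over all genes). Of all 11980 genes tested, 25.4% were called higher and 26.1% lower, so the share of lower genes in the list was near that of all genes. G6pc2, the islet glucose-6-phosphatase catalytic subunit, was 898.3 and 1163.4 CPM in beta-gated cells against 19.39 and 21.79 CPM in alpha-gated cells (log2 ratio 5.57, adjusted p = 1.15e-12, edgeR). Pcx, pyruvate carboxylase, was higher by 2.80 (log2, adjusted p = 7.45e-10, edgeR), and the malate dehydrogenase Mdh1 by 1.45 (adjusted p = 2.13e-07, edgeR). Lower in beta-gated cells were Hk1, a hexokinase of high glucose affinity, at 0.463 and 0.2593 CPM against 21.34 and 21.27 CPM in alpha-gated cells, Slc2a3, the transporter GLUT3 (log2 ratio -3.91, adjusted p = 9.89e-07, edgeR), and Glud1, glutamate dehydrogenase (log2 ratio -1.53, adjusted p = 4.04e-08, edgeR).

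Trpm5 had the same pattern as Slc2a2. In beta-gated cells its level was 473 and 371.6 CPM (5108 and 5734 UMIs), against 1.629 and 1.557 CPM in alpha-gated cells, 2.627 and 2.312 CPM in delta-gated cells, 0 and 1 UMIs in PP-gated cells, and 2.437 and 1.552 CPM in T-gated cells. No library of another endocrine type came near the lower beta-gated value. The log2 ratio was 7.98 over alpha (SE 0.21, adjusted p = 3.82e-13, edgeR) and 7.48 over delta (SE 0.23, adjusted p = 2.28e-12, edgeR). Against PP-gated cells both genes were higher as well, with adjusted p = 8.18e-09 for Slc2a2 and 2.91e-10 for Trpm5 (edgeR). The PP-gated counts of 0 or 1 UMI allow a bound only where the count was 0: at least 83.7-fold for Slc2a2 with HC alone and at least 49.9-fold for Trpm5 with gluten, against a floor of 3 UMIs per library. Per 1000000 insulin UMIs, Trpm5 was 259.4 and 195.9 in beta-gated cells, 222.1 [106.5, 408.3] and 269.5 [98.91, 586.5] in alpha-gated cells and 205.5 [88.72, 404.8] and 209.5 [104.6, 374.7] in T-gated cells.

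**Figure D1:**
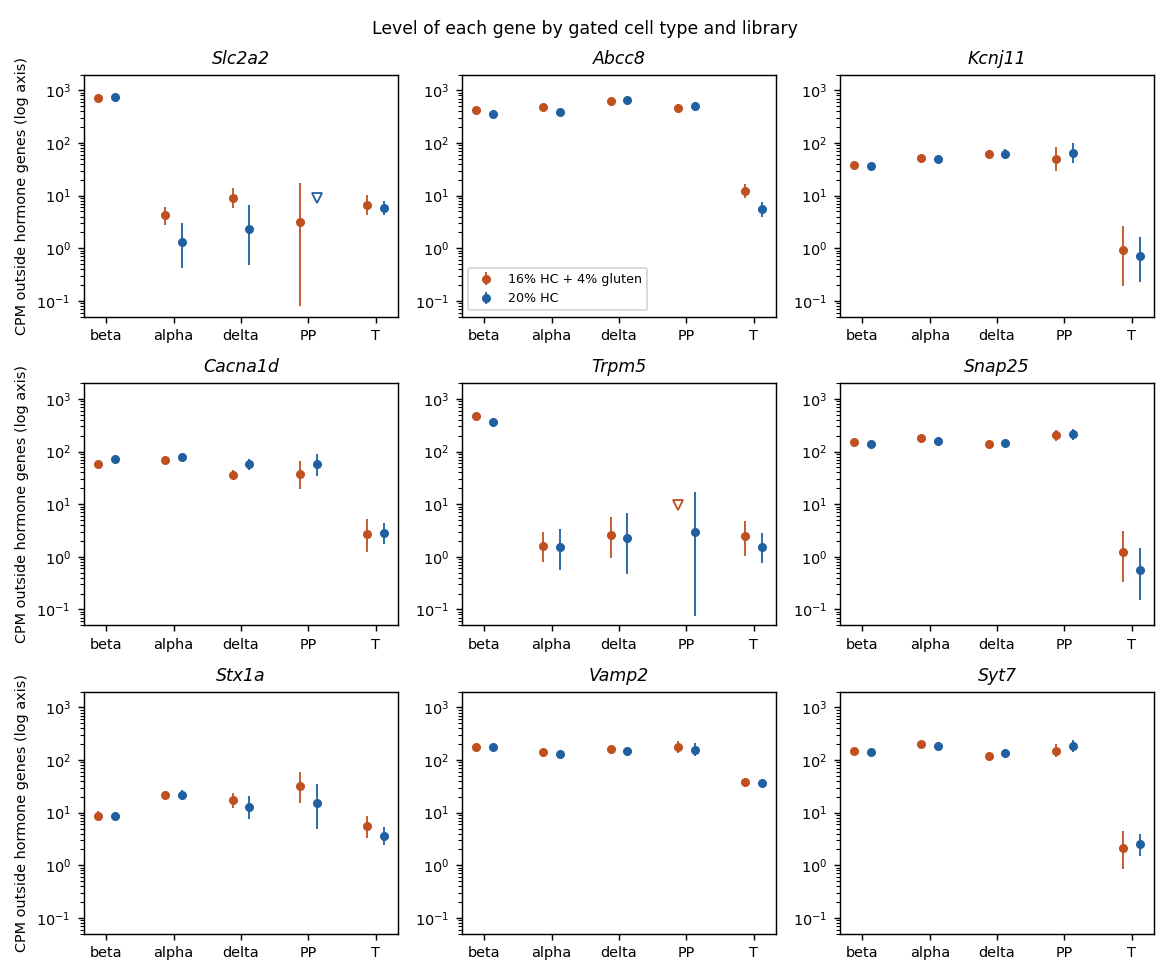
Level of each gene (CPM outside the hormone genes, log axis) in beta-, alpha-, delta-, PP- and T-gated cells, with 1 point per library and bars for the 95% interval of counting error; open triangles stand at the floor of 3 UMIs where the count was 0. Slc2a2 and Trpm5 are high in beta-gated cells and under 10 CPM in all other types, while the other 7 genes differ far less among the 4 endocrine types.

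Shares of cells with a UMI gave the same picture at equal depth. With each cell thinned to 1500 UMIs outside the hormone genes, 59.89% and 66.04% of beta-gated cells held a Slc2a2 UMI, against 0.4449% and 0.4396% of alpha-gated cells and 1.152% and 0.7332% of T-gated cells. Before thinning these shares were 94.78% and 97.46%, 2.892% and 1.099%, and 2.176% and 1.459%. Trpm5 was found in 45.06% and 37.08% of thinned beta-gated cells and in 0.4449% and 0.4396% of alpha-gated cells. For PP-gated cells, 0 of 37 and 0 of 35 thinned cells held a UMI of either gene. A floor of 3 cells stands for shares of 8.11% and 8.57%, and the exact 95% intervals reach 9.489% and 10%. Abcc8 was found in 44.58% and 41.18% of thinned beta-gated cells, 51.61% and 43.74% of alpha-gated cells, 61.8% and 57.14% of delta-gated cells, and 1.885% and 1.015% of T-gated cells. Vamp2 was the member found most often in T-gated cells, at 6.178% and 5.866% of thinned cells. Stx1a was sparse everywhere: 0.8555% and 0.8203% of thinned beta-gated cells held a UMI, close to the T-gated 0.733% and 0.846%. Before thinning, with beta-gated cells sequenced deeper, the shares were 8.452% and 10.75% against 1.865% and 1.347%. Whether the Vamp2 and Stx1a UMIs in T-gated cells were free RNA was not tested.

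**Figure D2:**
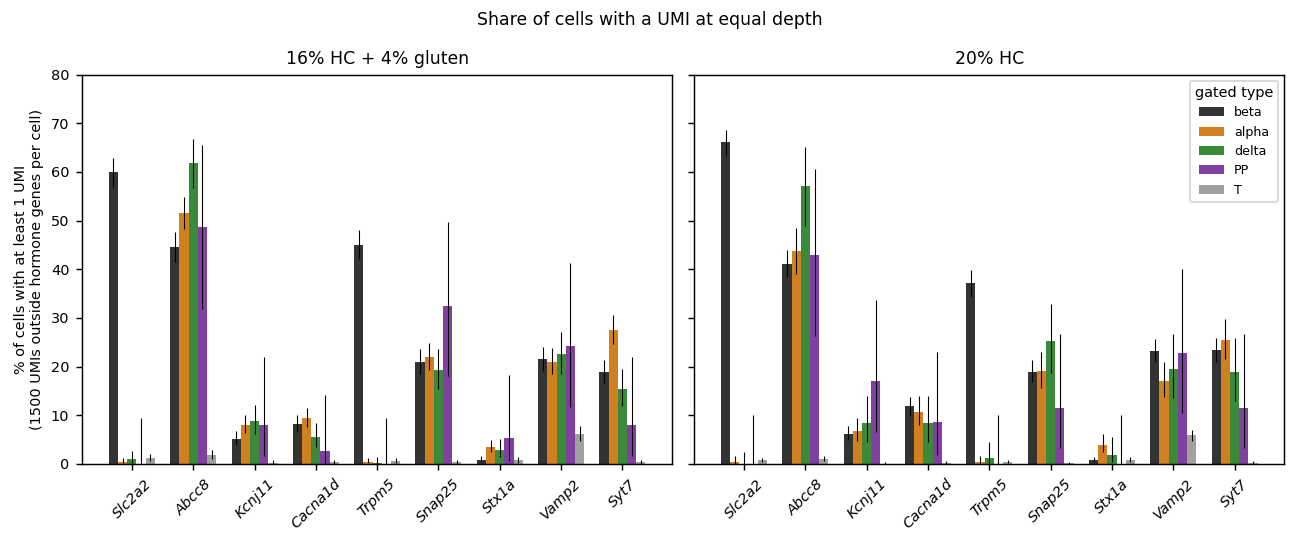
Share of cells (%) with at least 1 UMI of each gene after thinning every cell to 1500 UMIs outside the hormone genes, by gated type, with exact binomial 95% intervals, for the library with gluten (left) and with HC alone (right). Slc2a2 and Trpm5 bars stand out for beta-gated cells (59.89% and 66.04% for Slc2a2), and Abcc8 is found in over 40% of the cells of all 4 endocrine types.

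The KATP channel genes were present in all 4 types and highest in delta-gated cells or PP-gated cells. Abcc8, the sulfonylurea receptor, was 416.4 and 352.6 CPM in beta-gated cells, 477.7 and 391.2 CPM in alpha-gated cells, 630.9 and 642.8 CPM in delta-gated cells and 458.4 and 515.1 CPM in PP-gated cells. Both delta-gated values exceeded all 6 others, and beta-gated cells were lowest within each library. On this scale Abcc8 was lower in beta-gated than in delta-gated cells by a log2 ratio of -0.67 (SE 0.13, adjusted p = 0.000766, edgeR), while the ratios to alpha (-0.24, SE 0.13, adjusted p = 0.14) and to PP (-0.31, SE 0.14, adjusted p = 0.142) did not pass. Kcnj11, the pore, was 38.06 and 36.04 CPM in beta-gated cells, 52.95 and 50.07 CPM in alpha-gated cells, 62.17 and 62.43 CPM in delta-gated cells and 50.58 and 65.89 CPM in PP-gated cells. Beta-gated values lay below all 6 others. The log2 ratio was -0.54 to alpha (SE 0.12, adjusted p = 0.00114, edgeR) and -0.68 to delta (SE 0.13, adjusted p = 0.000624, edgeR), and the ratio to PP, -0.62 (SE 0.22), had an adjusted p of 0.0683. With cells carrying acinar UMIs left out, the ratio to PP was -0.72 and passed (adjusted p = 0.0451, edgeR). Counted per cell instead, both genes were higher in beta-gated than in alpha-gated cells: 4.27 and 4.463 against 3.261 and 3.314 UMIs for Abcc8, and 0.3903 and 0.4561 against 0.3615 and 0.4242 UMIs for Kcnj11. Against delta-gated cells the direction per cell differed between the libraries. Beta-gated cells held 1.117 and 0.824 of the delta-gated UMIs per cell for Abcc8, and 1.036 and 0.867 for Kcnj11.

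Among 12 other potassium channel genes tested, 2 were higher and 7 lower in beta-gated than in alpha-gated cells (median log2 ratio -0.46), against 25.4% and 26.1% of all genes. Kcnmb2, an auxiliary subunit of BK channels, was higher by 0.82 (log2, adjusted p = 6.12e-05, edgeR) and Kcnb2, a delayed rectifier, by 0.53 (adjusted p = 0.0433, edgeR). Kcnk3, the two-pore channel TASK-1, was 2.13 and 0.7778 CPM in beta-gated cells against 132.8 and 118.8 CPM in alpha-gated cells and 113.8 and 80.87 CPM in PP-gated cells. Kcnj6 was lower by a log2 ratio of -2.64 (adjusted p = 7.15e-07, edgeR). Kcnh6, at 6.39 and 3.37 CPM in beta-gated and 15.8 and 13.75 CPM in alpha-gated cells, had no UMI in delta-gated cells of either library.

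Cacna1d, the Cav1.3 calcium channel, was 57.51 and 73.37 CPM in beta-gated cells, 69.07 and 77.31 CPM in alpha-gated cells, 36.34 and 57.8 CPM in delta-gated cells and 37.94 and 56.91 CPM in PP-gated cells. Alpha-gated cells were highest in each library, and the libraries overlapped between types, since the delta- and PP-gated values with HC alone lay close to the beta-gated value with gluten. The log2 ratio of beta over delta was 0.57 (SE 0.14, adjusted p = 0.00405, edgeR), and on the scale of all UMIs, hormones included, the beta-gated cells were instead lower, at 0.737 and 0.568 of the delta-gated level. Ratios to alpha (-0.24, SE 0.12, adjusted p = 0.0965) and to PP (0.50, SE 0.23, adjusted p = 0.156) did not pass. Of 20 tested calcium, sodium and TRP channel genes, 12 were lower and 2 higher in beta-gated than in alpha-gated cells (median log2 ratio -0.73; 26.1% and 25.4% of all genes were called lower and higher). Against delta-gated cells 13 were lower and 2 higher (21.7% and 21.2% of all genes), and against PP-gated cells 6 and 2 (9.2% and 10.5%). Scn3a, a neuronal sodium channel, was 5.464 and 4.537 CPM in beta-gated cells, 91.39 and 89.5 CPM in alpha-gated cells, 80.56 and 96.34 CPM in delta-gated cells and 101.2 and 113.8 CPM in PP-gated cells. Cacng4, an auxiliary subunit, was lower than in alpha-gated cells by a log2 ratio of -5.83 and the T-type channel Cacna1g by -3.17 (adjusted p = 2.43e-08 and 0.00134, edgeR). Cacna1g was sparse, at 0.0926 and 0.3241 CPM in beta-gated and 2.607 and 1.557 CPM in alpha-gated cells. The 2 higher genes were Trpm4, a relative of Trpm5 with the same calcium-activated current, at 40.1 and 39.34 CPM against 11.08 and 12.19 CPM in alpha-gated cells, and Scn9a, by a log2 ratio of 0.46 (adjusted p = 0.0082, edgeR).

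Of the fusion proteins, Stx1a, the plasma membrane syntaxin, had the lowest level in beta-gated cells relative to the other types. It was 8.797 and 8.815 CPM in beta-gated cells (95 and 136 UMIs), 21.34 and 21.79 CPM in alpha-gated cells, 17.08 and 13.1 CPM in delta-gated cells, and 31.61 and 14.98 CPM in PP-gated cells (10 and 5 UMIs), with 5.482 and 3.669 CPM in T-gated cells. Beta-gated values lay below all 6 others. The log2 ratio to alpha was -1.34 (SE 0.19, adjusted p = 2.39e-05, edgeR), and the direction was the same per cell, at 0.09022 and 0.1116 against 0.1457 and 0.1846 UMIs. The ratio to delta was -0.73 (SE 0.25, adjusted p = 0.0279, edgeR), which did not pass with DESeq2 (adjusted p = 0.064) or after thinning to 5000 UMIs (adjusted p = 0.163, edgeR). Per cell, beta-gated cells held 0.872 and 1.011 of the delta-gated UMIs, so the direction differed between the libraries. Against PP-gated cells the ratio was -1.34 (SE 0.43, adjusted p = 0.0397, edgeR) and the call ended under 3 alternatives, among them leaving out cells with acinar UMIs (adjusted p = 0.0507).

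Snap25, the other plasma membrane SNARE, was 150.7 and 140.4 CPM in beta-gated cells, 176.9 and 159 CPM in alpha-gated cells, 136.6 and 146.4 CPM in delta-gated cells and 202.3 and 215.6 CPM in PP-gated cells. PP-gated values were highest and the delta- and beta-gated values overlapped. Only the ratio to PP passed (log2 -0.48, SE 0.15, adjusted p = 0.0296, edgeR), and it rested on 64 and 72 UMIs and ended under 4 alternatives (adjusted p from 0.0547 to 0.53). Without cells carrying acinar UMIs the ratio to alpha, -0.27, passed too (adjusted p = 0.0401, against 0.0807 with them, edgeR). Vamp2, the granule SNARE, was 173.4 and 177.3 CPM in beta-gated cells, 143.2 and 130.7 CPM in alpha-gated cells, 164.6 and 148.7 CPM in delta-gated cells, 180.2 and 158.7 CPM in PP-gated cells, and 38.07 and 36.69 CPM in T-gated cells. Beta-gated values exceeded the alpha-gated ones in both libraries and overlapped the PP-gated ones. The log2 ratio to alpha, 0.29 (SE 0.12, adjusted p = 0.0498, edgeR), stood at the threshold, was lost after thinning to 5000 UMIs (adjusted p = 0.106), and turned to 0.653 and 0.76 of the alpha-gated level on the scale of all UMIs.

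Syt7, the slow calcium sensor of granule release, was 146.5 and 141.4 CPM in beta-gated cells, 200.4 and 183.2 CPM in alpha-gated cells, 117.8 and 135.6 CPM in delta-gated cells, and 151.7 and 188.7 CPM in PP-gated cells. Alpha-gated values lay above both beta- and delta-gated values in each library. On this scale it was lower than in alpha-gated cells by a log2 ratio of -0.48 (SE 0.13, adjusted p = 0.00692, edgeR), while per cell it was higher, at 1.502 and 1.79 against 1.368 and 1.552 UMIs. The ratio to delta was 0.25 (SE 0.14, adjusted p = 0.156) and passed without acinar carriers (adjusted p = 0.0444) and after thinning to 5000 UMIs (adjusted p = 0.0299, edgeR).

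**Figure D3:**
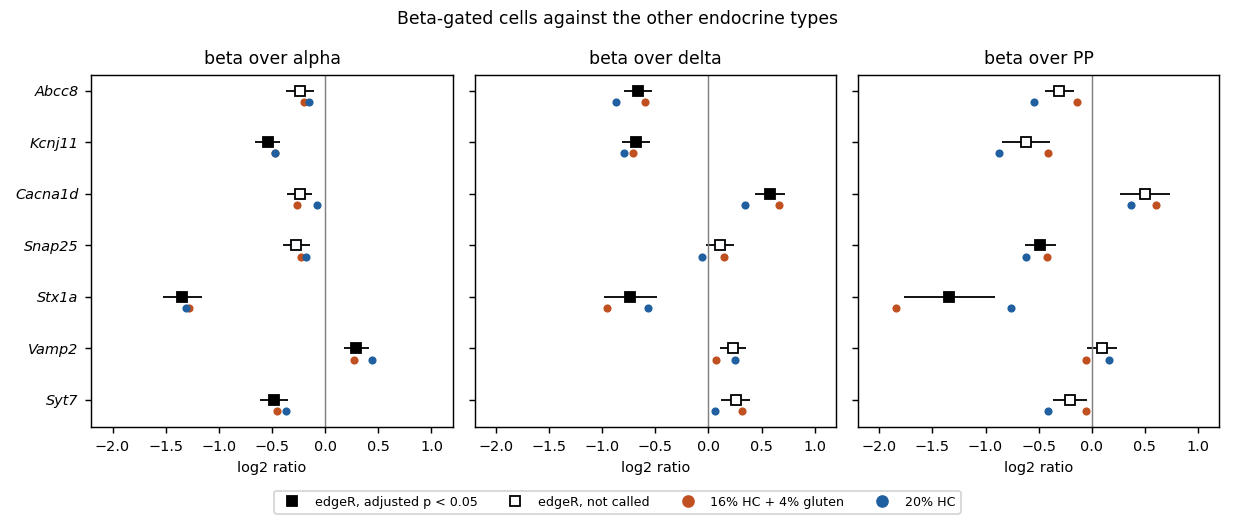
Log2 ratio of beta-gated over alpha-, delta- and PP-gated cells for the 7 genes other than Slc2a2 and Trpm5 (CPM scale), with squares for the edgeR estimate and its standard error, filled where the adjusted p was under 0.05, and points for each library. Stx1a lies left of 0 in all 3 panels, and Cacna1d lies right of 0 against delta-gated and PP-gated cells.

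The wider release machinery was mixed. Of 21 tested vesicle fusion genes, 6 were higher and 2 lower in beta-gated than in alpha-gated cells (median log2 ratio -0.08), where 25.4% and 26.1% of all genes were called, so the count of higher genes was near the background. Snap23, a broadly expressed relative of Snap25, was higher by 1.51, the NSF adaptor Napa by 0.99 and Stxbp2 by 0.82, and Stxbp5l (tomosyn-2, an inhibitor of SNARE assembly) and complexin 2 (Cplx2) were lower by -1.18 and -1.002, with adjusted p from 4.47e-07 to 0.000226 (edgeR). Of 27 calcium sensor, docking and priming genes, 10 were higher and 12 lower, against the same shares of all genes. Sytl4, granuphilin, which docks insulin granules, was 358.8 and 342.3 CPM in beta-gated cells against 1.792 and 1.816 CPM in alpha-gated cells, 4.816 and 0.7707 CPM in delta-gated cells and 0 and 2.995 CPM in PP-gated cells. The active zone genes Rims3 (65.38 and 49.32 against 1.303 and 0.5188 CPM) and Pclo (229.3 and 224.6 against 30.79 and 24.9 CPM) were higher as well. A related effector, Sytl2, went the other way, at 0.0926 and 0.06481 CPM in beta-gated cells, 14.01 and 8.042 CPM in alpha-gated cells and 41.1 and 35.94 CPM in PP-gated cells. Syt16 and Rab3c were lower than in alpha-gated cells by log2 ratios of -3.79 and -3.35 (adjusted p = 6.39e-07 and 3.64e-11, edgeR).

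Of 15 genes that amplify release, 5 were higher and 6 lower in beta-gated than in alpha-gated cells, against 25.4% and 26.1% of all genes. The glucagon receptor Gcgr was 37.78 and 44.72 CPM in beta-gated cells and 3 and 0 UMIs in alpha-gated cells. The incretin receptor Glp1r was sparse, with 55 and 52 UMIs in beta-gated cells and 0 in alpha-gated cells. With each 0 set to the floor of 3 UMIs, Glp1r was 10.4-fold and 4.33-fold higher. Chrm3, the muscarinic receptor, was 42.69 and 30.72 CPM in beta-gated cells, 1.792 and 1.038 CPM in alpha-gated cells and 53.74 and 44.93 CPM in PP-gated cells. Lower were Gnas, the stimulatory G protein, at 1749.5 and 1744.4 CPM against 8883.8 and 10045.4 CPM in alpha-gated cells, the IP3 receptor Itpr1 (40.28 and 27.42 against 329.4 and 271.1 CPM) and the adenylyl cyclase Adcy5 (log2 ratio -3.45, adjusted p = 0.000231, edgeR). Adcy5 was sparse, at 0.0926 and 0.5833 CPM in beta-gated and 4.724 and 3.373 CPM in alpha-gated cells.

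Counted over the 9 genes, 3 were higher and 3 lower in beta-gated than in alpha-gated cells, where 25.4% and 26.1% of all 11980 genes tested were called higher and lower. Against delta-gated cells 3 were higher and 3 lower (21.2% and 21.7% of all genes), and against PP-gated cells 2 and 2 (10.5% and 9.2%). The count of lower genes against PP was 0 or 1 under 4 alternatives, while Slc2a2 and Trpm5 were called higher in all 3 contrasts under every alternative with a test. The median log2 ratio of the 9 was -0.24 to alpha, 0.23 to delta and -0.20 to PP, against -0.02, -0.00 and 0.06 over all genes. The choice of scale moved every gene alike: CPM over all UMIs shifted the log2 ratios of beta over alpha by -0.89 and -0.83, those over delta by -1.102 and -1.161, and those over PP by -0.43 and -0.51. Because the 2 libraries are of different diets, a diet effect that differs between types counts as error in these tests, and p-values measure only the spread between these 2 pools.

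Counts of these genes varied among single beta-gated cells, and how much of that spread is counting error was not tested. Per 10000 UMIs outside the hormone genes, Slc2a2 had a median of 7.026 and 7.3 UMIs (quartiles 4.052 and 9.875 with gluten, 4.539 and 10.52 with HC alone), and 5.223% and 2.543% of cells had none. Trpm5 had a median of 4.162 and 3.323, and 10.26% and 10.58% of cells had none. Abcc8 had a median of 3.922 and 3.23, with 5.033% and 5.66% of cells at 0. Cacna1d was at 0 in 57.74% and 41.51% of beta-gated cells and Kcnj11 in 69.04% and 66.2%.

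Between the diets no gene of the set with enough UMIs to be measured was 2-fold apart in any endocrine type. A gene counted as measured when its higher library held 50 UMIs or more. By this rule 9 genes were measured in beta-gated cells, 7 in alpha-gated, 6 in delta-gated and 4 in PP-gated cells, and the share of all measured genes that were 2-fold apart was 1.77%, 2.29%, 2.48% and 4.73%. Trpm5 was 473 CPM with gluten and 371.6 CPM with HC alone in beta-gated cells, a log2 ratio of 0.35 [0.29, 0.40]. Abcc8 was higher with gluten in beta-gated (0.24 [0.18, 0.30]) and alpha-gated cells (0.29 [0.20, 0.38]) and not in delta-gated cells (-0.03 [-0.15, 0.10]). Cacna1d was lower with gluten in beta-gated cells (-0.35 [-0.49, -0.21]) and in delta-gated cells (-0.67 [-1.14, -0.20]), with -0.16 [-0.38, 0.06] in alpha-gated and 12 against 19 UMIs in PP-gated cells. Slc2a2 was 714.7 against 752.2 CPM in beta-gated cells, a log2 ratio of -0.07 [-0.12, -0.03]. This ratio depended on the scale, at -0.027 with CPM over all UMIs and -0.040 with TMM scaling. Snap25 stood at 0.10 [0.01, 0.20] in beta-gated and 0.15 [0.01, 0.30] in alpha-gated cells. On this scale the intervals of Kcnj11, Stx1a, Vamp2 and Syt7 held 0 in all types where they were measured, and in beta-gated cells those of Vamp2 [-0.12, 0.05] and Syt7 [-0.04, 0.14] left room for only small differences in counting terms. In alpha-gated cells the lower bounds were -0.028 for Vamp2 and -0.005 for Syt7, and TMM scaling moved these ratios up by 0.057, past both bounds. CPM over all UMIs moved the beta-gated ratios up by 0.0462, past the Syt7 bound of -0.0434.

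These intervals cover counting error and no difference between mice, so the differences cannot be told apart from differences between the pools. The median log2 ratio of the measured members was 0.05 in beta-gated cells, 0.13 in alpha-gated, -0.06 in delta-gated and -0.13 in PP-gated cells, against -0.05, -0.02, 0.03 and 0.06 over all measured genes. CPM over all UMIs moved every log2 ratio by 0.10 in alpha-gated cells and by 0.05 in beta-gated cells. Slc2a2 outside beta-gated cells was 26 against 5 UMIs in alpha-gated cells and 21 against 3 UMIs in delta-gated cells, log2 ratios of 1.71 [0.30, 3.45] and 1.99 [0.25, 4.38], and Stx1a was 10 against 5 UMIs in PP-gated cells. Among pathway list genes with 50 UMIs or more, 94 of them in beta-gated cells, none was 2-fold apart between diets in any of the 4 types. The share of all measured genes was itself small, at 1.77% in beta-gated, 2.29% in alpha-gated, 2.48% in delta-gated and 4.73% in PP-gated cells, so the absence of calls was near the background.

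**Figure D4:**
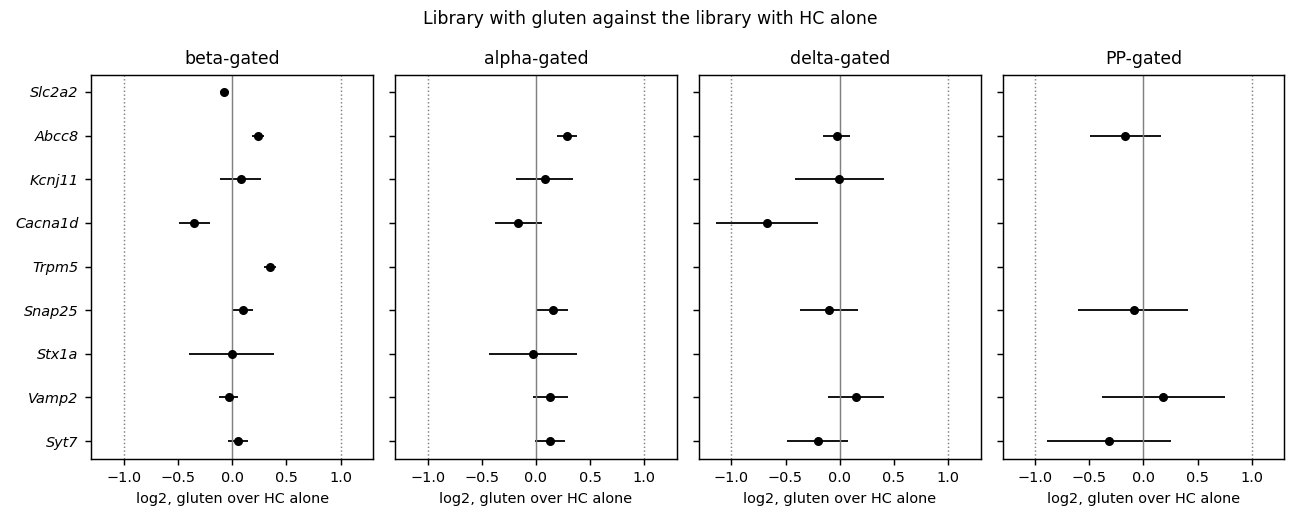
Log2 ratio of the library with gluten over the library with HC alone for each gene with at least 50 UMIs, by gated type, with 95% intervals for counting error; dotted lines mark 2-fold. All points lie between the dotted lines, with Trpm5 and Abcc8 right of 0 and Cacna1d left of 0 in beta-gated cells.

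Beta-gated cells also differed in an interferon response, which rises in inflamed NOD islets, and in immediate early genes, which can rise during dissociation. Summed CPM of the 22 interferon genes was 3154.1 and 5299.1, and of the 21 immediate early genes 28082.1 and 9493.7. Cells were split at the median interferon share over both libraries (0.2483% of UMIs outside the hormone genes, with 149 cells within 10% of it), which put 31.15% of the beta-gated cells with gluten and 66.28% of those with HC alone in the high part. The parts are ranges of one score, not cell types.

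Slc2a2 and Trpm5 were lower in the high part in both libraries. Slc2a2 was 547.3 CPM in the high and 793 CPM in the low part with gluten (log2 ratio -0.53 [-0.61, -0.46]) and 681.6 and 908 CPM with HC alone (-0.41 [-0.47, -0.36]). Trpm5 was 333.5 and 538.2 CPM with gluten (-0.69 [-0.79, -0.60]) and 340.8 and 439.9 CPM with HC alone (-0.37 [-0.45, -0.29]). Among all measured genes, 3.793% and 1.708% had a lower ratio than Slc2a2, and 1.648% and 2.757% a lower one than Trpm5. Abcc8 (-0.04 and -0.09), Kcnj11 (-0.01 and -0.01), Snap25 (0.02 and -0.04) and Syt7 (-0.14 and -0.03) lay much nearer 0. So did Cacna1d (-0.14 and -0.15) and Stx1a (0.19 and 0.17), and Vamp2 was lower with gluten (-0.15) and higher with HC alone (0.12). Median depth was 27624 in the high and 27300 UMIs in the low part with gluten, and 37125 and 35308 UMIs with HC alone. Ductal markers were higher in the high part, at 567.9 against 340 CPM and 451.3 against 340 CPM (4 of 5 listed genes had UMIs with gluten), and acinar markers were 242.2 against 390.6 CPM and 59.31 against 64.09 CPM; their part in the result was not tested.

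Within the low part the diet ratio of Slc2a2 was -0.20 and that of Trpm5 0.29, against -0.07 and 0.35 over all beta-gated cells. Cells under the median immediate early share were few with gluten (98, against 1038 with HC alone), and among them the diet ratio of Cacna1d was -0.85, that of Snap25 turned to -0.09, and that of Syt7 was 0.31. Within the library with gluten, Cacna1d was 59.06 CPM above and 40.64 CPM below the median immediate early share (log2 ratio 0.54 [0.06, 1.06]), and with HC alone 73.05 and 73.42 CPM (-0.01 [-0.26, 0.24]). Trpm5 was 293.6 and 383.7 CPM with HC alone (-0.39 [-0.51, -0.26]) and 472.4 and 479.9 CPM with gluten (-0.02 [-0.16, 0.12]).

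**Figure D5:**
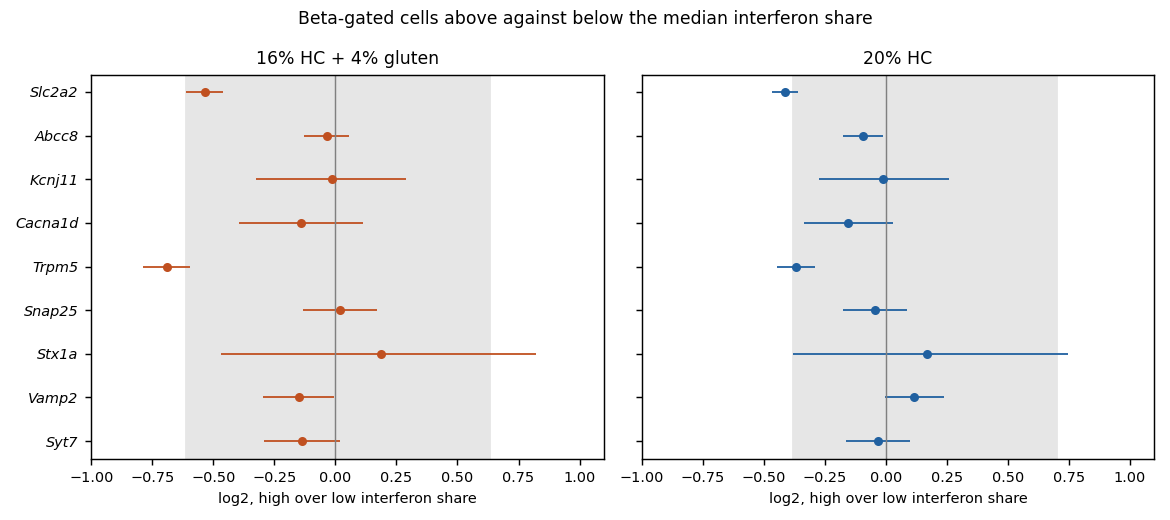
Log2 ratio of the level in beta-gated cells above over below the median interferon share, for each gene and library, with 95% intervals for counting error; the grey band spans the middle 95% of all measured genes. Slc2a2 and Trpm5 lie left of the other 7 genes in both libraries, at -0.53 and -0.69 with gluten and -0.41 and -0.37 with HC alone.

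Genes were ranked by likeness of pattern, as Pearson's r of log2(CPM + 1) over the 8 sums, among 10371 genes. The sums cover 4 types and 2 libraries, and r takes no account of the level or of the size of a difference. The points share libraries and cells, so r is a description. Slc2a2 was most like Prlr, the prolactin receptor (r = 0.993, 623.3 and 780.8 CPM in beta-gated cells and at most 7.005 CPM elsewhere), and Prss53 (r = 0.988). Trpm5 was most like Vps8 (r = 0.996) and Psap, prosaposin (r = 0.994), and its r with Slc2a2 was 0.942. Psap differed far less between types than Trpm5, at 840.7 and 755.8 CPM in beta-gated cells and from 294 to 362.4 CPM elsewhere. Vps8 was 86.68 and 92.81 CPM in beta-gated cells and at most 12.33 CPM elsewhere. Abcc8 and Kcnj11 reached 0.840 with each other, and Kcnj11 was nearest to Ptpn13 (r = 0.992). The nearest genes were Ano6 for Abcc8 (r = 0.979), Slc35a3 for Cacna1d (r = 0.963), Ppp1r13b for Snap25 (r = 0.982), Snx24 for Stx1a (r = 0.982), Adrm1 for Vamp2 (r = 0.972) and Cep70 for Syt7 (r = 0.981).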

How the data were processed

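Single-cell RNA was measured in 2 islet libraries. The authors deposited raw UMI counts per gene and cell barcode (88268070 and 116900677 UMIs in 8200 and 7758 barcodes). Cell Ranger 4.0.0 and mm10 are named per the submitters' processing notes, and how the authors called cells is not given in the sources used here. Symbols came from GENCODE vM21 (30934 of 31053 identifiers matched).

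Cells were kept from 500 UMIs and 200 genes upwards, with mitochondrial UMIs at 20% or less. The 6% with the highest Scrublet score (scanpy 1.11.5) were removed as doublets, since Scrublet's own threshold marked 11 and 256 cells. This left 7122 and 7111 cells. Endocrine gates needed at least 5000 UMIs, a hormone (Ins1 and Ins2, Gcg, Sst or Ppy) at 5% or more of UMIs and at 70% or more of the 4 hormones' UMIs, and at most 2 UMIs of leukocyte, endothelial or mesenchymal markers. T-gated cells needed at least 2 UMIs of Cd3 genes. Levels leave out Ins1, Ins2, Gcg, Sst, Ppy, Pyy and Iapp.

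UMIs were summed over each gate and library. The 8 sums entered 1 edgeR 4.0.16 quasi-likelihood fit with type and library (TMM, filterByExpr, Benjamini-Hochberg over 11980 genes, threshold 0.05), with 3 residual degrees of freedom. Diet ratios have exact conditional binomial 95% intervals and no test. Shares have Clopper-Pearson intervals. A count of 0 was set to a floor of 3 UMIs. PCR and pooling error are not covered. The fit was also run on simulated counts in which 50 well-counted genes per fold were changed in the sums of beta-gated cells. All other genes had equal means in the 4 types and 1 fixed spread was used for all, unlike in the data. The recovery rates hold for that setting and need not hold for the data. On simulated counts over 11459 genes the fit recovered 100%, 100% and 92% of 4-fold rises, 98%, 98% and 74% of 4-fold falls, 84%, 78% and 28% of 2-fold rises and 84%, 60% and 26% of 2-fold falls against alpha, delta and PP.

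The genes and lists were chosen with earlier results of these data known. All 9 members were named; from each pathway list up to 3 genes per direction were named that were called for beta over alpha and had the largest ratio, and likewise per type for diet; the nearest genes in likeness were those with the highest r among genes with at least 200 UMIs. Of 129 listed pathway genes all but Vamp7 matched a row. Alternatives were other gates, depths, scales and filters, DESeq2 1.42.0, and each library alone; a leading hormone at 50% or more and thinning to 1500 UMIs outside the hormone genes were added after the data were seen.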

Additional observations from a re-analysis of the deposited data

How the results depend on the processing

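Each result was recomputed under the alternatives that apply to it, and no direction of a called result turned under those run on the CPM scale. The number of members lower in beta-gated than in PP-gated cells, 2, became 0 with the leading hormone at 90% or more and after thinning to 5000 UMIs, and 1 with the leading hormone at 50% or more (added after the data were seen) and with no filter on low counts. With cells carrying acinar UMIs left out it stayed 2, but Kcnj11 took the place of Stx1a. With at least 10 UMIs in place of 50, the members 2-fold apart between diets became 1 in alpha-gated, 1 in delta-gated (Slc2a2 in both) and 1 in PP-gated cells (Stx1a, 10 against 5 UMIs), all at low counts. The causes were not tested. Within single libraries, where no test is possible, the log2 ratio of Slc2a2 over alpha-gated cells ranged from 7.40 to 9.18 and that of Trpm5 from 7.90 to 8.18. No paired analysis was possible because each diet has 1 library; the library itself is a term of the fit. Depth limits PP-gated cells most: 37 and 35 cells held 316324 and 333887 UMIs outside the hormone genes.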
